A study of Mus musculus with 11 samples.

Results

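The cytosolic ribosomal proteins are the protein part of the ribosome that translates nuclear-encoded mRNA. Their genes were taken by symbol: Rpl (large subunit) or Rps (small subunit) followed by digits and at most 1 trailing letter a, x or l, together with Rplp0, Rplp1, Rplp2 and Rpsa. The rule found 81 of the 21759 gene symbols on the array, 32 of the small and 49 of the large subunit, and kept the muscle paralog Rpl3l among them. Each gene is given by its probe set (the probes summarised to 1 value) with the highest mean log2 intensity over the 11 mice, and intensities are on the log2 scale throughout.

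Ribosomal proteins are assembled with ribosomal RNA in the nucleolus, 1 copy of most of them per subunit, and are normally made in matched amounts. Their mRNAs are among the most abundant of any cell, start with a run of pyrimidines (the 5′ terminal oligopyrimidine, or TOP, element), and have their translation set as a class by mTOR signalling and Larp1. In skeletal muscle Rpl3l takes the place of the ubiquitous Rpl3 near the catalytic centre of the large subunit, and ribosome number is a known determinant of growth and regeneration of the fibres.

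Total RNA of the tibialis anterior muscle (TA, a fast muscle of the lower leg) was hybridised, 1 array per mouse, from male mice harvested at 14 weeks of age. The 3 C57 mice (C57/Bl10) were wild type and untreated. The 4 *mdx* mice (C57/Bl10ScSn-*Dmd* mdx/J) carry a nonsense mutation in *Dmd* that removes dystrophin from the muscle and were untreated, and the 4 treated mice, T1 to T4, were of the same strain and received Pip6e-PMO, a peptide-conjugated antisense oligonucleotide that skips the mutated exon, once at 12.5 mg/kg into the tail vein, when 12 weeks old. Whole cryosections from the mid-belly were used, so all cells of the muscle contributed RNA, and fewer cells of a type cannot be told apart from less RNA per cell.

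Muscle fibre markers were bright on all arrays (the summed intensity of 9 genes was 57100 to 60000 for the C57 group, 58800 to 60100 for *mdx* and 55800 to 61600 for the treated group). *Dmd* itself, measured by a probe set that does not separate the mutated from the skipped transcript, was -0.55 in *mdx* against C57 (adjusted p = 0.198, limma), 0.52 in treated against *mdx* (adjusted p = 0.142) and -0.02 in treated against C57 (adjusted p = 0.961). C57 1 and T2 stood apart from their groups at many ribosomal protein genes, as given below, and results that rest on them are given without them as well.

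Most probe sets for ribosomal protein genes cannot be told apart from copies elsewhere in the genome. The 81 genes had 417 probe sets, of which 384 carry the crosshyb_type 3 flag of the array annotation (probes that match several transcripts) and 33 carry type 1 (unique). A single gene had up to 30 of them. Of the 81 probe sets used, 63 were of type 3, and only 32 lay on the chromosome of the gene itself, so that for most genes the value is the pooled signal of the gene and its processed copies. A probe set on the chromosome of the gene can also be that of a copy, as for Rpl41 and Rps13, whose probe sets lie far from the gene on the same chromosome.

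To show the starts of the genes with a called difference, 30 bases around the first RefSeq transcription start of each (15 before and 15 from the start on, GRCm38.p6) are printed with the letters CTTTC, part of a TOP-like pyrimidine run, in capitals where they occur. Rpl3l is added as the muscle paralog.
Rps10, chr17:27635230-27635259, minus strand: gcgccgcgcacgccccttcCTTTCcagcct
Rpl41, chr10:128549154-128549183, minus strand: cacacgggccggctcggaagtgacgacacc
Rps27, chr3:90213634-90213663, minus strand: atttccgCTTTCgctcCTTTCcggcggtga
Rpl13, chr8:123102335-123102364, plus strand: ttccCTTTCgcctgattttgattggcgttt
Rpl38, chr11:114668565-114668594, plus strand: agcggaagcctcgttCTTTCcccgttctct
Rps21, chr2:180257364-180257393, plus strand: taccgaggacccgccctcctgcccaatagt
Rps13, chr7:116334176-116334205, minus strand: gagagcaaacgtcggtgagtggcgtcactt
Rps27l, chr9:66946071-66946100, plus strand: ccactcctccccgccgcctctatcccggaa
Rpsa, chr9:120127751-120127780, plus strand: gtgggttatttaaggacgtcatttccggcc
Rpl3l, chr17:24727811-24727840, plus strand: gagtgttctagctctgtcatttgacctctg

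Of the 81 genes, 60 had an entry in the promoter table. For these shares a gene counted if any of its listed starts held the letters, not the first alone. CTTTC on the sense strand, as printed above, lay within such a window in 17 of the 60 genes (28.3%). In the whole table it did so in 1286 of 27025 genes (4.76%). On the other strand, as GAAAG, it lay there in 2 of the 60 (3.33%) against 4.21% of all genes. In the whole 300 bases of the table, CCGGAAG on either strand, letters that resemble the binding site of ETS factors such as GABP, was found in 25 of the 60 (41.7%) against 9.93% of all genes. The printed windows of Rps10, Rps27, Rpl13 and Rpl38 held CTTTC, and those of Rpl41, Rps21, Rps13, Rps27l, Rpsa and Rpl3l did not. The letters lay from the listed start on in Rps10 and Rpl38, before it in Rpl13 and on both sides of it in Rps27. Letters before the start are outside the mRNA by that start, and the shares count both sides alike.

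The first comparison asked whether loss of dystrophin altered the mRNAs of the ribosome. In *mdx* against C57 muscle, no ribosomal protein gene passed the test. Of the 81 genes, 78 reached a mean intensity of 30 in at least 1 group and were tested, and Rpl10l, Rpl39l and Rplp2 did not. By limma with Benjamini-Hochberg adjustment over all 14494 probe sets tested, 0 of the 78 had an adjusted p under 0.05, whereas 12.0% of all probe sets did, 7.06% higher and 4.96% lower. At an unadjusted p under 0.05 there were 2 of 78, against 24.9% of all probe sets. The lowest adjusted p was 0.123, for Rpl3l. The p-values here and below measure the spread between mice.

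The differences were small in both directions. The median over the 78 genes was -0.04 on the log2 scale (quartiles -0.08 and 0.00), against -0.01 over all probe sets, and 75 of 78 lay within 0.25 of 0. The lowest was Rpl26 at -0.30 (adjusted p = 0.475) and the highest Rpl3 at 0.47 (adjusted p = 0.186). The next highest were Rpl14 at 0.30 (adjusted p = 0.231) and Rpl17 at 0.19 (adjusted p = 0.628), and next to Rpl26 and Rpl3l the lowest was Rps24 at -0.20 (adjusted p = 0.567); none of these passed the limma test. The *mdx* and C57 mice did not overlap for 5 genes (6.41%), of which 2 were higher in *mdx*, Rps10 among them, and Rpl26, Rpl3l and Rps2 were lower, against 24.3% of all probe sets.

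The muscle paralog showed the most even separation of these. Rpl3l was 10.93, 11.03 and 10.96 in C57 and 10.80, 10.76, 10.77 and 10.72 in *mdx* mice. Every *mdx* mouse lay below every C57 mouse, by a mean of -0.21 (SE 0.08, adjusted p = 0.123 by limma). The treated mice, at 10.73, 10.66, 10.83 and 10.72, lay around the *mdx* range (-0.03, adjusted p = 0.836) and below all C57 mice (-0.24, adjusted p = 0.0502). Rpl3l has a single probe set, of type 1 and on its own chromosome, and is flagged as matching no other transcript. Against C57 its call changed with the test: by the methods' t-test (adjusted p = 0.0333) and with array weights (adjusted p = 0.0257) the *mdx* difference passed.

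Rpl3, the ubiquitous gene, lay the other way. It was 9.02, 8.15 and 8.35 in C57, 8.78, 9.18, 8.86 and 9.09 in *mdx*, and 8.65, 8.62, 9.10 and 9.21 in treated mice. C57 1 lay among the *mdx* values and the other C57 mice lay below all of them. The mean difference of *mdx* from C57 was 0.47 (SE 0.21, adjusted p = 0.186, limma) and that of treated mice from *mdx* was -0.08 (adjusted p = 0.808). Without C57 1, a mouse picked out by its values in these same genes, the former was 0.73 (adjusted p = 0.0314, limma). Without C57 2 it was 0.29. With each mouse left out in turn it passed in 1 case alone, and the adjusted p reached 0.531 (limma). All 7 Rpl3 probe sets gave a difference of 0.38 to 0.51 in *mdx* against C57, the one on the gene's own chromosome 0.45 (adjusted p = 0.247).

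Within a mouse the log2 ratio of Rpl3l over Rpl3 is independent of a single scaling factor for the array. It is not independent of a normalization that acts by intensity, because Rpl3l is brighter than Rpl3. Its size depends on the probes and only its change has a meaning. The ratio was 1.91, 2.88 and 2.61 in C57, 2.02, 1.58, 1.91 and 1.63 in *mdx*, and 2.08, 2.04, 1.73 and 1.51 in treated mice. Means were 2.47 ± 0.50 (SD, n = 3), 1.79 ± 0.21 (n = 4) and 1.84 ± 0.27 (n = 4). The change from C57 to *mdx* was -0.68 (two-sided exact permutation test over mice, p = 0.0857, 0.171 after Benjamini-Hochberg adjustment over the 3 comparisons, with 0.0286 the smallest p the design allows). Treated mice differed from *mdx* by 0.05 (exact permutation p = 0.686, adjusted 0.686) and from C57 by -0.63 (p = 0.114, adjusted 0.171). C57 1, with a ratio inside the *mdx* range, set the overlap of C57 with *mdx*: without it the change to *mdx* was -0.96, at p = 0.0667, the smallest that 2 against 4 mice allow in an exact permutation test. Without C57 2 instead, the change was -0.48 (exact permutation p = 0.267).

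**Figure D1:**
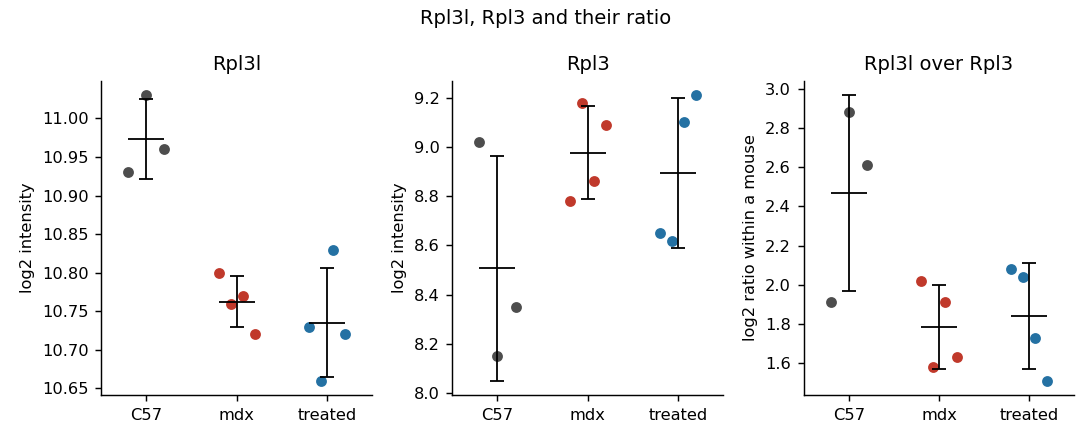
Log2 intensity of Rpl3l and Rpl3 and the log2 ratio within each mouse (points), for 3 C57, 4 mdx and 4 treated mice, with the group mean and SD as bars. The mdx and treated points for Rpl3l lie below all C57 points, and for Rpl3 and the ratio C57 1 lies within the mdx range.

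The second comparison asked what Pip6e-PMO treatment did to these mRNAs in *mdx* muscle. Most ribosomal protein genes were slightly lower in treated than in untreated *mdx* muscle, and 2 of them passed the test, both lower. Of the 78 genes, 65 had a negative difference (83.3%), where 47.1% of all probe sets did. Without T2 the difference was negative for 52 of the 78. With all mice the median was -0.17 (quartiles -0.22 and -0.05), a change of -10.8% in intensity, against 0.02 over all probe sets. The 2 called genes are 2.56% of the 78, against 11.1% of all probe sets called, 7.26% higher and 3.88% lower. The share called was thus below that of all probe sets, and most differences were small and of 1 sign. Other bright probe sets, with a mean log2 intensity of at least 10 as for most of these genes, leaned the same way: 65.6% of them were lower, with a median of -0.07. At an unadjusted p under 0.05 there were 22 of 78, 20 of them lower, against 31.5% of all probe sets.

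The called genes were Rps10, which lies by the mRNA entry channel of the small subunit, and Rpl41, the smallest ribosomal protein. Rps10 was 11.72, 11.73, 11.72 and 11.78 in *mdx* and 11.13, 11.54, 11.47 and 11.36 in treated mice, with C57 mice at 11.58, 11.61 and 11.66. Treated mice lay below all mice of both other groups. The difference from *mdx* was -0.36 (SE 0.09, a 1.29-fold lower intensity, adjusted p = 0.0339 by limma). For Rpl41 the *mdx* mice were at 11.80, 11.90, 11.92 and 11.81, the treated mice at 11.61, 11.63, 11.55 and 11.59 and the C57 mice at 11.80, 11.68 and 11.80. Its treated values were the least spread of the called genes and again lay below both other groups, with a difference from *mdx* of -0.26 (SE 0.08, 1.20-fold, adjusted p = 0.0448). All 3 probe sets of Rps10 and all 5 of Rpl41 were called lower, although 3 of the latter share every value.

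The largest falls that did not pass were those of small-subunit genes. Rps27 differed by -0.40 (adjusted p = 0.0622), while its other probe set passed at -0.43 (adjusted p = 0.0437, limma). Next were Rps29 by -0.39 (adjusted p = 0.0872) and Rps21 by -0.38 (adjusted p = 0.0819). Treated and *mdx* mice did not overlap for 16 genes (20.5%), all lower in treated mice, where the groups did not overlap for 16.0% of all probe sets and treated mice were the lower group for 6.69% and the higher for 9.29%. Among them were Rpl13, Rpl15, Rpl34, Rpl38, Rpl39 and Rpl41 of the large and Rps10, Rps12, Rps18, Rps27, Rps27l, Rps29 and Rpsa of the small subunit. No gene of the set was higher in treated mice without overlap.

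Rpl5, which carries the smallest ribosomal RNA into the large subunit and binds Mdm2 when assembly is disturbed, differed in the other direction. It was 9.72, 9.28, 9.08 and 9.03 in *mdx* and 9.49, 9.94, 9.84 and 9.87 in treated mice, with C57 at 9.40, 9.07 and 9.44. T2, T3 and T4 lay above all *mdx* mice and T1 above all but *mdx* 1, and the difference was 0.51 (SE 0.16, adjusted p = 0.0589), which does not pass. The probe set used lies on another chromosome than the gene. The 4 dimmer probe sets of Rpl5, the one on its own chromosome among them, gave 0.59 to 0.62 and all passed (adjusted p from 0.0158 to 0.0206, limma). Next were Rps3a at 0.30 (adjusted p = 0.17) and Rpl4 at 0.25 (adjusted p = 0.159).

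Against C57 muscle, treated muscle had 7 called genes, all lower (8.97% of 78, against 24.6% of all probe sets called and 8.96% called lower). The median was -0.19 (quartiles -0.26 and -0.10), against 0.00 over all probe sets, and 66 of the 78 genes lay below 0. Without T2, 54 lay below 0, and without C57 1, 56 did. With all mice, 72.2% of the other probe sets with a mean log2 intensity of at least 10 lay below 0, with a median of -0.10. At an unadjusted p under 0.05 there were 24 of 78, 23 of them lower, against 39.7% of all probe sets. Of the 7 genes 5 belong to the small subunit, of which 32 were tested and whose median was -0.21, and 2 to the large subunit, of which 46 were tested and whose median was -0.15; the difference between the subunits was not tested. This comparison shares its treated mice with the one above and its C57 mice with the one before, so the values are not independent of theirs.

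Rps27, a zinc-finger protein of the small subunit, had the largest fall. It was 9.57, 9.43 and 9.57 in C57, 9.55, 9.32, 9.31 and 9.34 in *mdx* and 8.57, 9.09, 9.18 and 9.08 in treated mice. Treated mice lay below all others, T1 lowest, with a difference from C57 of -0.54 (SE 0.14, 1.46-fold lower, adjusted p = 0.0157, limma). Its paralog Rps27l, a separate gene with a single probe set of type 1, was 10.84, 10.77 and 11.15 in C57 and 10.35, 10.61, 10.73 and 10.53 in treated mice, without overlap, at -0.36 (SE 0.12, adjusted p = 0.0427).

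Among the other small-subunit genes, Rpsa, known also as a laminin receptor precursor, was 10.83, 10.83 and 10.98 in C57 and 10.36, 10.72, 10.63 and 10.61 in treated mice, without overlap (-0.30, SE 0.10, adjusted p = 0.0447). Rps21 (-0.45, SE 0.14, adjusted p = 0.0422) and Rps13 (-0.41, SE 0.14, adjusted p = 0.044) passed although their groups overlapped. For Rps21 T2, at 9.61, lay above C57 1 at 9.55, and for Rps13 T3, at 9.62, lay above C57 1 at 9.61. Against C57, 1 of 2 probe sets of Rps21, 2 of 3 of Rps13 and 2 of 5 of Rpsa were called.

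The called genes of the large subunit were Rpl13 and Rpl38, the latter known for skeletal patterning defects when mutated in mice. Rpl13 was 9.99, 9.93 and 10.15 in C57 and 9.39, 9.61, 9.79 and 9.65 in treated mice (-0.41, SE 0.11, adjusted p = 0.016). Rpl38 was 11.40, 11.24 and 11.35 in C57 and 10.91, 10.85, 11.10 and 11.13 in treated mice (-0.33, SE 0.10, adjusted p = 0.0294). Both were without overlap. In all, 18 genes were lower and 1, Rpl5 (0.48, adjusted p = 0.0587), was higher in treated than in C57 mice without overlap (24.4%), against 32.0% of all probe sets, 14.1% lower and 17.9% higher.

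Most of these calls lay close to the threshold. Under the alternatives of processing, test and left-out mice, the call against C57 was lost in 16 of 23 for Rps21, 14 of 23 for Rps27l, 16 of 22 for Rpsa, 13 of 22 for Rps13 and 8 of 22 for Rpl38, and in 2 of 22 each for Rps27 and Rpl13. The call against *mdx* was lost in 12 of 22 for Rps10 and in 13 of 22 for Rpl41.

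**Figure D2:**
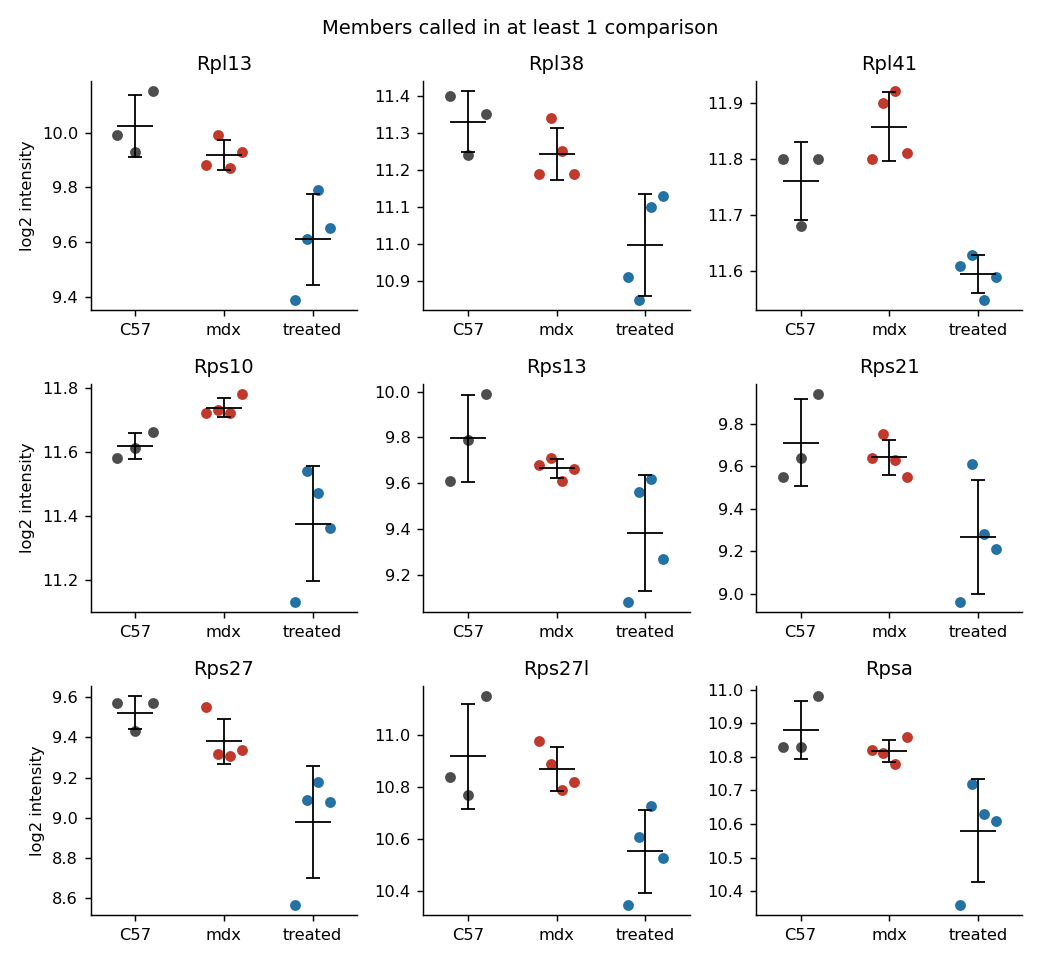
Log2 intensity of the 9 ribosomal protein genes called in at least 1 comparison, 1 point per mouse, with group mean and SD as bars (3 C57, 4 mdx, 4 treated mice; each panel has its own axis). For all of these genes but Rps13 and Rps21 all treated points lie below all others, and T1 is the lowest treated mouse for 7 of the 9 genes.

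**Figure D3:**
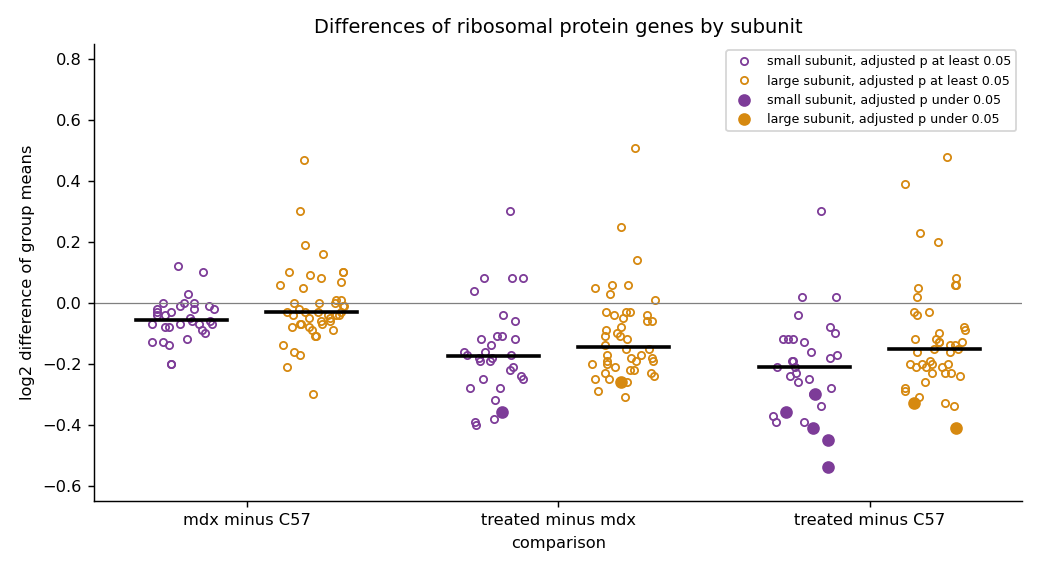
Log2 differences of the 78 tested genes in the 3 comparisons, by subunit; filled points have an adjusted p under 0.05 (limma) and bars are medians. In mdx minus C57 the points lie around 0 with none called, and in the other comparisons the medians of both subunits lie between -0.14 and -0.21.

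The signal class of these genes moved with this result. Of the 78 genes, 52 had a mean log2 intensity of at least 10 and 22 one from 8 to 10. Of the 1147 other probe sets with a mean of at least 10, 65.6% were lower in treated than in *mdx* mice, with a median of -0.07, whereas the 10035 other probe sets under 8 had a median of 0.05. The 99th percentile of each array's log2 values was 11.81 to 11.86 in C57 and *mdx* mice but 11.72 to 11.77 in treated mice. When quantile normalization was repeated on the deposited values, the median of the ribosomal protein genes in treated against *mdx* mice was -0.08 and that against C57 -0.09, with 59 and 62 of 78 still lower; neither Rps10 nor Rpl41 was then called, and Rpl5 was, as the only call against *mdx*. Of the 7 genes called against C57, Rps27 and Rpl13 remained, with Rpl5 added. What part the signal scale has in the shift was not tested.

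The treated mice were unequal. The median deviation of the 78 genes from the C57 mean was 0.07, -0.08 and 0.01 in C57 1 to 3, -0.07, 0.04, -0.06 and -0.04 in *mdx* 1 to 4, and -0.25, -0.28, -0.06 and -0.12 in T1 to T4. T1 and T2 lay well below all other mice, T4 less so, and T3 lay within the range of the *mdx* mice. Over all probe sets these medians ran from -0.03 to 0.02, and over the other probe sets with a mean log2 intensity of at least 10 they were -0.13, -0.05, -0.08 and -0.10 in T1 to T4. Against the latter, T3 and T4 lay close to the other bright probe sets and T1 and T2 lay below them. T1 lay below the *mdx* mean for 65 of 78 genes, T2 for 69, T3 for 45 and T4 for 48.

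**Figure D4:**
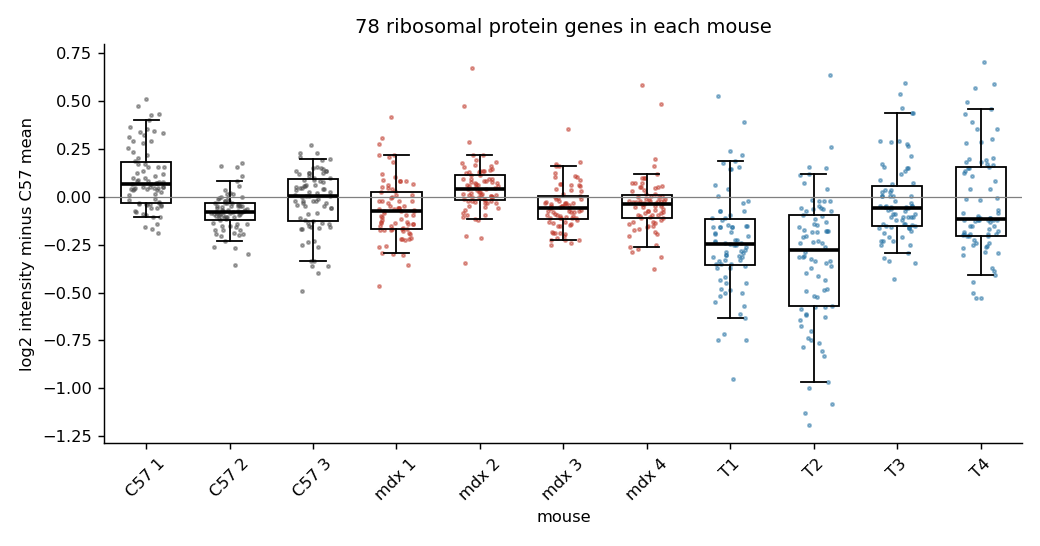
Log2 intensity of each of the 78 tested genes (points) minus its C57 mean, for each of 11 mice; boxes give quartiles and median, whiskers the 5th to 95th percentile. The medians of T1 and T2, at -0.25 and -0.28, lie below all other mice, and T2 has the widest spread.

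The spread within the treated group was also wide for these genes. The median within-group SD was 0.13 in C57, 0.09 in *mdx* and 0.20 in treated mice, against 0.15, 0.14 and 0.19 over all probe sets. The SD was larger in treated than in *mdx* mice for 75 of 78 genes (96.2%), against 64.0% of all probe sets. The *mdx* mice were thus closer to each other in these genes than over all probe sets, and the treated mice were not. Most of the other probe sets were dimmer than these genes, and the spread of bright ones alone was not examined.

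T1 and T2 were both low in most of these genes, and T2 was far below the other treated mice in some. The paper reports the lowest treatment efficacy in the treated sample that it labels T2. It measured this as exon skipping by RT-qPCR and as dystrophin by mass spectrometry. Its western blot values for dystrophin did not correlate significantly with either, and it describes densitometry as less quantitative. Whether the values of T2 in these genes are related to treatment efficacy was not tested. T2 lay below the mean of T1, T3 and T4 by a difference of -0.5 or lower for 19 of 78 genes, with values from -1.33 to -0.51, where 10.7% of all probe sets did so. Rpl35 (-1.33), Rps6 (-1.25) and Rpl21 (-1.11) were the most extreme, and Rpl7a, Rpl32, Rpl26 and Rps7 followed. At the other end T2 was above the other treated mice for Rps21 (0.46), Rps9 (0.45) and Rps29 (0.44). T2 was the lowest treated mouse for 43 genes and the highest for 19, and T1 was the lowest for 31. In the 59 genes other than the 19, T1 lay below the *mdx* mean in 56 and T2 in 50, by medians of -0.29 and -0.17, and in the 19 genes T1 did so in 9.

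Rps6, the small-subunit protein phosphorylated by the kinases downstream of mTOR, shows the pattern. It was 11.87, 11.47 and 11.42 in C57, 11.45, 11.61, 11.59 and 11.59 in *mdx* and 11.73, 10.46, 11.62 and 11.78 in treated mice. T2 alone lay far below and C57 1 lay highest. The difference of treated from *mdx* mice was -0.16 (SE 0.24, adjusted p = 0.685) and turned to 0.15 without T2 (adjusted p = 0.334). Rpl35 was 11.10, 10.51 and 10.26 in C57, with T2 at 9.43 and the other treated mice at 10.53, 10.76 and 10.98. In all 19 genes C57 1 lay above the mean of the other C57 mice, by 0.16 to 0.71 with a median of 0.48; in the other 59 genes it did so in 36, with a median of 0.06. Of the 19 probe sets, 16 lie on a chromosome other than that of the gene, as do 33 of the other 59.

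**Figure D5:**
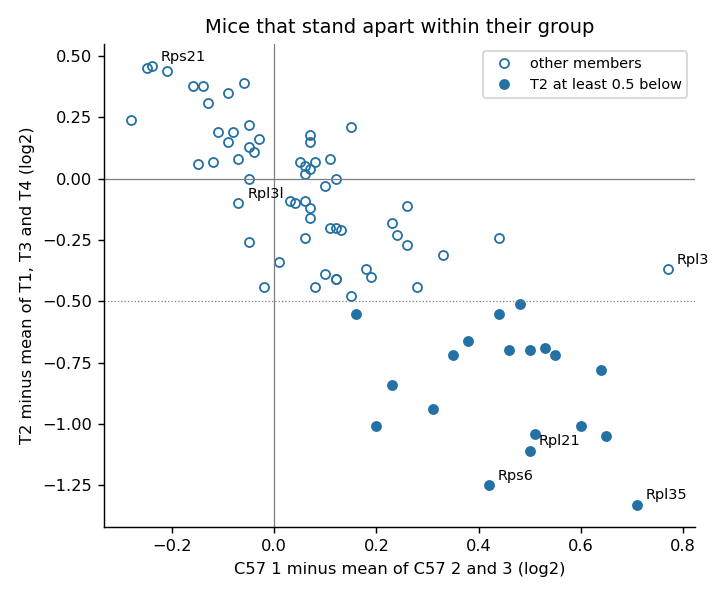
For each of the 78 tested genes, the log2 difference of T2 from the other treated mice (vertical) against that of C57 1 from the other C57 mice (horizontal). Filled points are the 19 genes at -0.5 or lower for T2, all of which lie to the right of 0.

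Without T2 the count of calls in treated against *mdx* muscle was 13 of 78, of which 11 were lower and 2, Rps3a and Rpl4, higher, with a median of -0.12, when 28.4% of all probe sets were called. Rpl13, Rps21, Rps27, Rps29 and Rpsa were among the lower ones. Leaving out any of C57 2, *mdx* 2, *mdx* 3, *mdx* 4, T1, T3 or T4 left 0 calls, when 7.50%, 6.81%, 3.90%, 2.44%, 3.39%, 2.63% and 2.04% of all probe sets were called. Leaving out C57 1 or C57 3 left Rps10 alone (9.19% and 9.99% of all), and leaving out *mdx* 1 gave Rpl5 alone (8.62%). The median stayed between -0.20 and -0.12. Against C57 the 7 calls became 0 without C57 3 and 2 without C57 2, when 13.1% and 13.7% of all probe sets were called. They became 5 without C57 1, *mdx* 1 or T3 (20.9%, 23.5% and 17.5% of all). They became 3 without T1 (19.5% of all) or any of *mdx* 2, 3 and 4 (22.5%, 21.7% and 24.2%), 4 without T4 (16.8%) and 12 without T2 (34.1%), with medians of -0.21 to -0.15. Among these calls 1 was higher in each of 4 cases: Rpl3 without C57 1, Rpl5 without *mdx* 1 or without T1, and Rps3a without T2.

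Over all 414 member probe sets tested, 0 were called in *mdx* against C57, 4 were called higher and 22 lower in treated against *mdx*, and 4 higher and 40 lower against C57 (6.28% and 10.6% of the 414). Over all probe sets 12.0%, 11.1% and 24.6% were called, and in the latter comparisons 3.88% and 8.96% were called lower. The 4 higher ones were those of Rpl5. In treated against *mdx*, 55 of the 64 genes with several probe sets had them all on the same side of 0, and the median range within a gene was 0.08. The 15 genes represented by a unique probe set had a median of -0.21 there, the 29 on their own chromosome -0.19 and the 49 on another chromosome -0.12. Only the chromosome was compared here, so the 29 include copies on the same chromosome.

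The acidic stalk of the large subunit recruits translation factors. Rplp0, its base and a common reference gene in RT-qPCR, was 12.59, 12.58 and 12.68 in C57, 12.51, 12.59, 12.54 and 12.55 in *mdx*, and 12.41, 12.54, 12.46 and 12.42 in treated mice. The treated mice lay below all C57 mice, at -0.16 (adjusted p = 0.158), and T2 lay among the *mdx* mice. Rplp1 differed by -0.02, -0.10 and -0.13 in *mdx* against C57, treated against *mdx* and treated against C57 (adjusted p = 0.935, 0.528 and 0.42). Rplp2, its partner, had a single probe set that read only 4.39 to 4.94, with all group means under the minimum, so that its mRNA was not measured usefully here.

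The remaining genes given here were not called by the probe set used. Rps4x, the X-linked copy of its gene, was read by a type 3 probe set on chromosome 13, which is not specific to that copy. The value differed by -0.06, 0.08 and 0.02 in the same order (adjusted p = 0.847, 0.663 and 0.9, limma). Rpl10l and Rpl39l, known from testis, read 3.83 to 4.41 and 2.83 to 3.33, below the minimum in all groups. Rps27a, made as a fusion with ubiquitin, differed by -0.01, -0.11 and -0.12 (adjusted p = 0.97, 0.495 and 0.44). Fau, made as a fusion with a ubiquitin-like protein and left out by the symbol rule, differed by 0.13, -0.29 and -0.16 (adjusted p = 0.488, 0.0616 and 0.245). Rps19, the gene first linked to Diamond-Blackfan anaemia, differed by -0.10, -0.25 and -0.34 (adjusted p = 0.706, 0.162 and 0.0609). Its probe set used gave the smallest fall of 4: 2 of them were called lower in treated against *mdx* and 3 against C57, with differences down to -0.34 and -0.50.

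Genes that build the ribosome, work with it or control its mRNAs are given from lists outside the symbol rule. Their counts stand beside 12.0%, 11.1% and 24.6% of all probe sets called in *mdx* against C57, treated against *mdx* and treated against C57. Of 37 ribosome biogenesis genes 35 were tested. In *mdx* against C57, 29 of them had a negative difference, with a median of -0.13, where 52.1% of all probe sets had one. The 1 called was Rrs1, an assembly factor of the large subunit (-0.39, adjusted p = 0.0305). The next lowest p were those of Rrp9 (-0.47, adjusted p = 0.0831), Bysl (-0.32, adjusted p = 0.104) and Mybbp1a (-0.29, adjusted p = 0.162). In treated against *mdx*, 1 gene rose, Taf1a (0.40, adjusted p = 0.0326), and 1 fell, Nop16 (-0.51, adjusted p = 0.0242), with a median of 0.04. Against C57, 2 rose (Npm1 and Ncl) and 6 fell, Nop16, Nop2, Rrp9, Nhp2, Bysl and Ebna1bp2, where 15.6% of all probe sets were called higher and 8.96% lower.

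Of the 21 translation factors and other genes whose mRNAs belong to the TOP class, Eef1a1 alone was called in *mdx* muscle. Its mean was 10.33 ± 0.17 (SD, n = 3) in C57, 11.15 ± 0.11 (n = 4) in *mdx* and 11.46 ± 0.10 (n = 4) in treated mice. The groups did not overlap, and *mdx* exceeded C57 by 0.82 (SE 0.11, adjusted p = 0.000542, limma). This elongation factor shares the TOP element with the ribosomal proteins, and its difference from C57 was over that of any of the 78. In treated against *mdx*, Eif3e rose (0.69, adjusted p = 0.0384) and Eif3k fell (-0.34, adjusted p = 0.0429). Nap1l1 (0.37, adjusted p = 0.0624), Naca (-0.38, adjusted p = 0.0804) and Hnrnpa1 (0.21, adjusted p = 0.166) came next after Eef1a1 in *mdx*. Against C57, 4 of the 21 were called higher and 3 lower in treated mice, where 24.6% of all probe sets were called.

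Of the 19 genes of mTOR signalling and of control of these mRNAs, Eef2k, the kinase that inhibits elongation factor 2, was called in *mdx* (8.61, 8.79 and 8.67 in C57 against 7.85, 8.21, 8.25 and 8.34 in *mdx*; -0.53, SE 0.12, adjusted p = 0.011), and its treated values of 8.18 to 8.32 lay within the *mdx* range. Eif4ebp2 (-0.39, adjusted p = 0.0894), Tsc2 (-0.25, adjusted p = 0.175) and Eif4ebp1 (-0.23, adjusted p = 0.292) came next and did not pass. In treated against *mdx*, Rictor rose (0.67, adjusted p = 0.0397). Against C57, Rps6kb1 was higher (0.45, adjusted p = 0.0199) and Eef2k and Eif4ebp1 lower in treated mice, where 24.6% of all probe sets were called. Of the 3 paralogs outside the symbol rule 2 were tested, Rpl36al and Rpl7l1, and 0 were called in the limma fit; for Rpl7l1 the adjusted p was 0.925, 0.112 and 0.14.

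Many markers of leukocytes, regenerating fibres and matrix cells differed between *mdx* and C57 muscle, and those of blood did not. Over all probe sets, 12.0%, 11.1% and 24.6% were called in the 3 comparisons. All 11 macrophage and leukocyte markers were called higher in *mdx* than in C57, with summed intensities of 1480 to 1860 for the C57 group, 4100 to 6090 for *mdx* and 2780 to 4160 for the treated group, and 4 were called lower in treated against *mdx*. Of the 10 markers of regenerating fibres, 8 were called higher in *mdx*, with sums of 2450 to 4240, 6900 to 7990 and 4750 to 6940 in the 3 groups. Of the 9 fibroblast and matrix markers 5 were called higher in *mdx* and 0 were called between treated and *mdx*, and of the 5 endothelial markers 2 were called higher in treated against *mdx*, Tek and Pecam1. Of the 9 general and fast fibre markers and of the 6 blood markers, 0 were called in any comparison. Slow fibre markers were called in all comparisons, 6 of 7 being tested, with sums of 1220 to 1540, 1240 to 2620 and 1200 to 1850. In *mdx*, Tnni1 (2.47, adjusted p = 0.0132) and Atp2a2 (0.76, adjusted p = 0.000408) were higher and Myl3 (-1.67, adjusted p = 0.000506) lower. In treated against *mdx*, Myl3 was higher (0.81, adjusted p = 0.0297) and Myl2 (-0.75, adjusted p = 0.0328) and Tnnt1 (-0.79, adjusted p = 0.033) lower. Against C57, Atp2a2 was higher and Myl2 and Myl3 lower. Myl2 lay near the signal minimum, with mean intensities of 36.2 in C57 and 31.1 in *mdx*, and under it in treated mice (18.5). Of the markers called higher in *mdx*, Ptprc (27.1), Itgam (28.4), Myh3 (19.3) and Chrng (18.1) had C57 means under the minimum. The sizes of these differences are therefore uncertain. The part of the cells that the markers stand for in the values of the ribosomal protein genes was not tested.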

How the data were processed

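RNA from the TA of 11 mice was measured on Affymetrix Mouse Gene ST 1.1 arrays. The authors made the deposited intensities with Expression Console (RMA background correction, sketch-quantile normalization, median polish). They cover 28350 probe sets on a linear scale. All of them are whole hundredths on the log2 scale, within 0.0001. Such quantile normalization sets nearly the same distribution on each array, so a change of total mRNA is not visible. Array medians were 27.5 to 28.6. Fluorescence has no read depth, and precision is limited by the number of mice.

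Values were taken to log2. limma (3.58.1, R 4.3.3) fitted 1 mean per group over all 11 mice to the 14494 probe sets with a group mean of at least 30 in some group, the methods' minimum. Tests were two-sided, moderated by eBayes, adjusted by Benjamini-Hochberg over all of them with calls at an adjusted p under 0.05 whatever the fold. The fit was tested on simulated data. A gene's own chromosome came from RefSeq, as did promoter sequences (GRCm38.p6). Printed windows are those of the first start listed, not on chromosome 18, and motif shares use all listed starts.

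Genes given with values were Rpl3, Rpl3l, the stalk genes, Rpsa, symbols ending in l or x, Rps6, Rps19, Rps27a with Fau, up to 10 called genes per comparison and direction (or the 3 largest where fewer than 3 were called), and 4 of each outside list by p; Rpl35 and other genes named for T2 were chosen after their values were seen. Some genes that this rule names are not reported here. Members and lists were chosen with earlier results of these data known.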

Additional observations from a re-analysis of the deposited data

Results flagged for a closer look

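In groups of 4 mice, the gap between an extreme mouse and its neighbour was set against the group's range (above Dixon's critical value), for the genes given with values, the median of the set and the ratio of Rpl3l over Rpl3. Of 60 groups 7 passed, where chance gives about 1 in 20. Groups of 3, and so C57, were not examined. In treated mice, T2 was low for Rps6 (10.46, others 11.62 to 11.78), and T1 was low for Rps27 (8.57, others 9.08 to 9.18) and for Rpl39l (2.84, others 3.04 to 3.06), which lies under the signal minimum. In *mdx* mice, *mdx* 1 was high for Rps27 (9.55, others 9.31 to 9.34) and low for Rps6 (11.45, others 11.59 to 11.61), *mdx* 2 was high for Rps29 (10.61, others 10.51 to 10.52) and *mdx* 4 was high for Rps10 (11.78, others 11.72 to 11.73).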

How the results depend on the processing

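Alternatives are given in the order *mdx* against C57, treated against *mdx*, treated against C57. The 0, 2 and 7 members called, all lower, became 1, 1 and 0 by the methods' t-test (5.46%, 0.607% and 8.79% of all probe sets called) and 2, 14 and 16 with array weights, of which 1, 3 and 4 were higher (23.3%, 31.8% and 45.2% of all). In the latter comparisons they became 7 and 12 with a trended robust prior (11.9% and 25.1%), 0 and 3 with only the 2 groups compared in the fit (5.04% and 18.7%), 1 and 3 with quantile normalization repeated (9.08% and 24.8%), 1 and 1 with type 1 probe sets only (11.9% and 26.4%), and 0 and 2 with the replicate block (3.44% and 16.1%). With all probe sets of a gene averaged 7 were called against *mdx* (12.0%), with the probe set on the gene's own chromosome (chosen after seeing the data) 4 (11.1%), and with arrays centred on the median 15 against C57 (26.5%). Rpl5 was the only higher call among the 3 with only 2 groups, the 7 averaged and the 4 on the own chromosome. The same held for the 1 and 3 with quantile normalization repeated. The medians of -0.17 and -0.19 moved to -0.08 and -0.09 with quantile normalization repeated and to -0.08 and -0.07 with array weights. Centring moved the median of all probe sets by less than 0.1.

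Rpl3l passed in *mdx* by the methods' t-test (-0.21, adjusted p = 0.0333) and array weights (-0.24), and in treated mice against C57 without a signal filter, with a minimum of 100, with the robust prior (-0.24 each), centred (-0.29) and with array weights (-0.22). Rpl3 passed with array weights at 0.62 and 0.72. For the ratio no alternative passed, although with C57 as 1 side none that leaves out a mouse of the groups compared could (smallest exact permutation p of 0.0667 or 0.1), and Rpl3 has no type 1 probe set, so it could not be had there. With quantile normalization repeated, the differences in the ratio were -0.64, 0.13 and -0.52. Rpl26 in treated against *mdx* turned to 0.19 with array weights. Of the 1542 values of other named genes under alternatives, 1405 kept the call, 96 lost a call, 37 gained one and 4 turned. A change of sign counted as turned only where a call was involved or the new difference exceeded its SE. Smaller changes of sign are among those that kept the call, as for Rpl17 in treated against *mdx* (-0.24 to 0.07).

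The 3, 5 and 18 calls outside the members became 14, 29 and 33 with array weights, 5, 2 and 10 with only 2 groups, 1 and 5 (the latter comparisons) by the t-test, and, against *mdx*, 3 unfiltered, 3 with quantile normalization repeated, 8 with the robust prior and 1 with the replicate block. Numbers shared by mice of different groups do not pair them: deviations of same-numbered mice correlated at -0.297 to 0.153. The cause of these moves was not tested.

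Leaving out each mouse gave 0 to 1, 0 to 13 and 0 to 12 members called, medians of -0.08 to 0.01, -0.20 to -0.12 and -0.21 to -0.15, and 1 to 5, 0 to 25 and 7 to 25 calls outside. Rpl3 ran from 0.29 to 0.73, -0.19 to 0.01 and 0.21 to 0.65, Rpl3l from -0.23 to -0.18, -0.06 to 0.00 and -0.27 to -0.21, and the ratio from -0.96 to -0.48, -0.03 to 0.16 and -0.90 to -0.42. Rpl26 against *mdx* ran from -0.19 to 0.22, and Rps6 from -0.29 to 0.15 against *mdx* and -0.32 to 0.12 against C57, the highest of each without T2.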
